A study of Glycine max with 12 samples.

Results

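Asparagine synthetase was followed through 6 probesets of a soybean (Glycine max) oligonucleotide array that carries 42748 probes other than controls. The probesets were taken by name because the published lists of nitrate-responsive probesets describe them as asparagine synthetase. GMFL01-13-P05-R_651 is described as AS1, and GMFL01-14-F20-R_547 and BE805634.1_378 as AS2. GMFL01-15-F24-R_255 and GMFL01-43-H16-R_100 are described as asparagine synthetase with no number, and CO979767.1_615 as the glutamine-hydrolyzing asparagine synthase. Those lists hold only probesets that changed over 2-fold on the same arrays. The number of members that rose or fell is therefore not independent evidence of direction. A further 3 probesets carry an asparagine synthetase description in the lists without being members, and they are given beside the members where useful. The scanner files give no gene for a probe, so AS1 and AS2 are the lists' descriptions and not a match to the genome, and no probe sequence was used here.

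Asparagine synthetase transfers the amide nitrogen of glutamine to aspartate and so makes asparagine and glutamate, at the cost of ATP. Asparagine carries much of the nitrogen that leaves soybean roots supplied with nitrate, whereas nodules that fix nitrogen export it mostly as the ureides allantoin and allantoic acid. Asparaginase acts in the opposite direction and releases ammonium and aspartate from asparagine.

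The plants were of the cultivar Nourin No. 2, inoculated with Bradyrhizobium diazoefficiens USDA110 and grown hydroponically without nitrogen. From 19 days after planting they received 5 mM nitrate for 24 h, or stayed on nitrogen-free solution as the control. The 4 groups were nitrate-treated roots, control roots, nitrate-treated nodules and control nodules, with 3 arrays each, and every sample was pooled from 3 plants. Roots were the lower part of the root system, which bore no visible nodules, and nodules were the larger ones of the upper part. The first control root sample shared its slide with the 3 nitrate-treated root samples, and nitrate-treated nodule sample 3 shared its slide with the 3 control nodule samples. The other control root samples and nitrate-treated nodule samples 1 and 2 lay together on the remaining slide.

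Each array was scaled to a mean signal of 2500, and the values below are these scaled signals. Between 79.2% and 84.5% of the probes were well above background on an array, and no probe was saturated. A probeset was called raised or lowered where limma gave an adjusted p under 0.05 over all probes of the fit and the change was over 2-fold. The nodule marker fixed for this work, nodulin-21 (AW203733.1_45), read 2521 to 7830 in nitrate-treated roots, 13311 to 14373 in control roots, 54365 to 73059 in nitrate-treated nodules and 33681 to 36492 in control nodules. Its signal was thus higher in every nodule sample than in any root sample, was not absent from roots, and was lower in nitrate-treated than in control roots without overlap. It is 1 gene, and since leghemoglobin and uricase were not matched to a probe here, it does not stand for nodule markers at large. The paper reported that leghemoglobin and nodule-specific uricase tended to be higher in nitrate-treated roots, without statistical significance. Whether nodule RNA had a part in the root values was not tested.

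Nitrate raised 5 of the 6 members in roots, where 0.851% of all probes tested were raised, and 5 of the 6 in nodules, where 3.19% were. The exception in both organs was CO979767.1_615, which fell in nodules and did not pass the test in roots. The 4 bright members reached 5.28-fold to 8.48-fold of the control in roots and 2.99-fold to 3.83-fold in nodules.

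**Figure D1:**
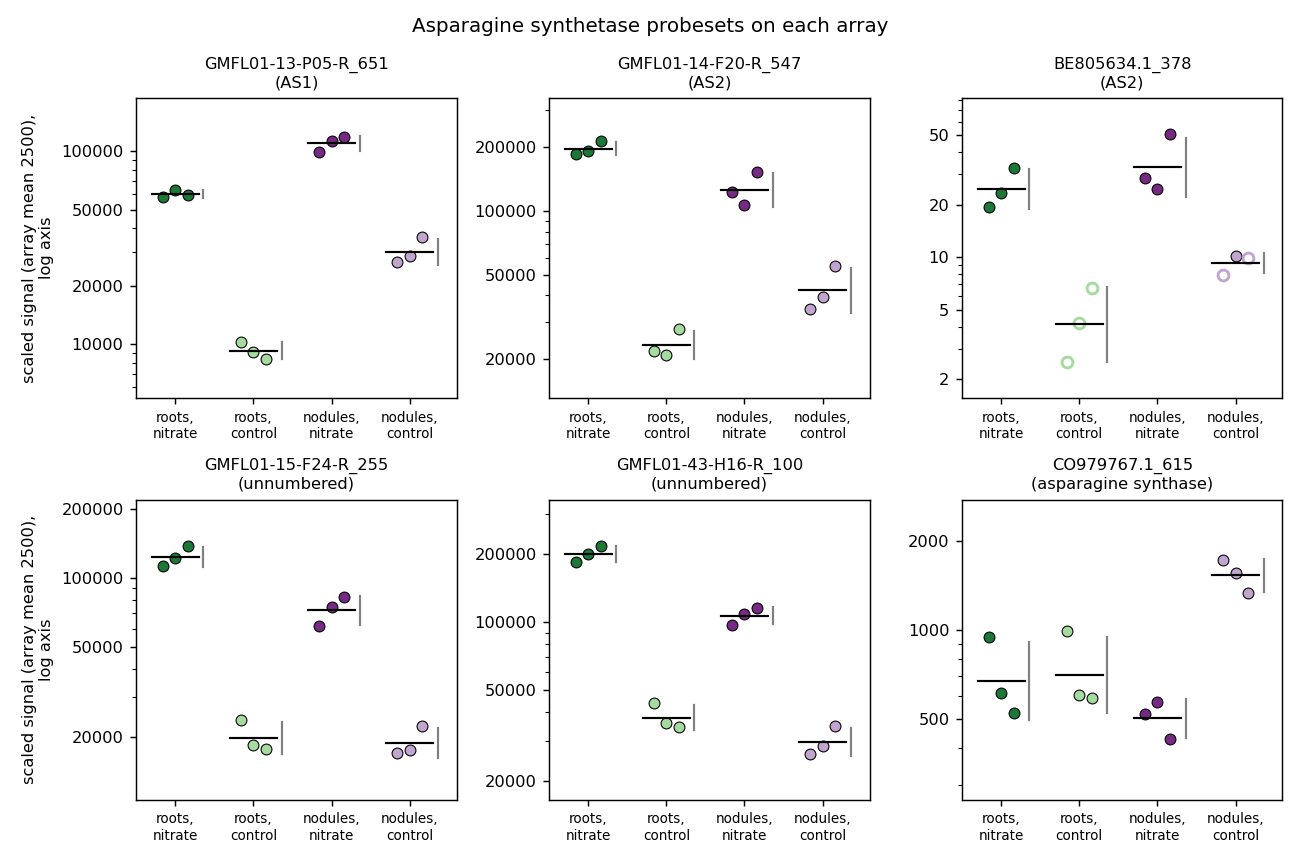
Scaled signal of each member (log axis, one scale per panel) on the 3 arrays of each group, with the mean of log2 values as a black line and 1 SD of log2 values as a grey bar. Filled points were well above background and open points were not. In GMFL01-14-F20-R_547 the nitrate-treated roots reached 186841 to 214374, above every other group, while in GMFL01-13-P05-R_651 the nitrate-treated nodules did, at 99796 to 118174.

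The AS1 probeset GMFL01-13-P05-R_651 read 57799, 63431 and 59514 in nitrate-treated roots, against 10320.1, 9196 and 8451 in control roots. In nodules it read 99796, 113545 and 118174 with nitrate, against 26806, 28762 and 36055 in the control. The 4 groups did not overlap, and their order from high to low was nitrate-treated nodules, nitrate-treated roots, control nodules and control roots. The rise was 2.70 on the log2 scale in roots (SE 0.19, limma adjusted p = 0.0012) and 1.86 in nodules (SE 0.13, adjusted p = 0.0022). The scanner read this probeset from its low-gain scan on all arrays except the 3 control roots, so the root difference spans 2 gain settings. The part of the scan gain was not tested.

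The AS2 probeset GMFL01-14-F20-R_547 was brightest in nitrate-treated roots. Its signals there were 186841, 191999 and 214374, against 21809, 20914 and 27627 in control roots. Nitrate-treated nodules gave 122906, 106796 and 153862, against 34548, 39353 and 55303 in control nodules. No group overlapped another, and the order was nitrate-treated roots, nitrate-treated nodules, control nodules and control roots. Here all 12 arrays were read from the low-gain scan, and the log2 rise was 3.08 in roots (SE 0.21, adjusted p = 0.00094) and 1.58 in nodules (SE 0.21, adjusted p = 0.0041).

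The other AS2 probeset, BE805634.1_378, lay near background. It read 19.5, 23.3 and 32.6 in nitrate-treated roots, against 2.50, 4.22 and 6.71 in control roots, where none of the 3 arrays was well above background. Its root signal was therefore at least 2.69-fold higher with nitrate, with each control array set to at least its lowest signal read as well above background. The fitted log2 change was 2.57 (SE 0.39, adjusted p = 0.021), and leaving out nitrate-treated root sample 1, 2 or 3 ended the call (adjusted p = 0.067, 0.078 and 0.087). In nodules it read 28.4, 24.6 and 51.3 with nitrate, against 7.93, 10.2 and 9.88 in the control, where 1 of 3 arrays was well above background. The nodule groups did not overlap and differed by 1.83 on the log2 scale (SE 0.28, adjusted p = 0.0054). With normexp background correction the change was 0.57 in roots and 0.56 in nodules, under 2-fold. That correction added an offset of 50 to every signal, which shrinks changes at signals this low, so these values give no size.

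The unnumbered probeset GMFL01-15-F24-R_255 read 113210.4, 121815 and 137750.0 in nitrate-treated roots, against 23822, 18559 and 17702 in control roots. Its nodule signals were 61634, 74773 and 82118 with nitrate, against 17053, 17591 and 22412 in the control. Both nitrate groups stood clear of both control groups, and the control roots and control nodules overlapped. The log2 rise was 2.64 in roots (SE 0.21, adjusted p = 0.0019) and 1.94 in nodules (SE 0.15, adjusted p = 0.0022).

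GMFL01-43-H16-R_100, the other unnumbered probeset, gave 184464, 200586 and 217409.7 in nitrate-treated roots, against 43994, 35856 and 34595 in control roots. In nodules it gave 97340.4, 108678 and 115904 with nitrate, against 26331, 28446 and 34726 in the control. The order of its groups was that of GMFL01-15-F24-R_255, and its control roots and control nodules overlapped only through the lowest root and the highest nodule sample. It rose by 2.40 in roots (SE 0.20, adjusted p = 0.0025) and by 1.85 in nodules (SE 0.12, adjusted p = 0.0021) on the log2 scale.

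CO979767.1_615 ran the other way. It read 520.3, 571 and 427 in nitrate-treated nodules, against 1728, 1563 and 1334 in control nodules, with no overlap, and was 3.05-fold lower with nitrate (log2 change -1.61, SE 0.14, adjusted p = 0.0025). In roots it read 947, 612 and 525 with nitrate, against 992, 605 and 587 in the control, and the groups overlapped almost wholly. The first sample was the highest in both root groups. The root change was -0.07 on the log2 scale (95% interval -0.81 to 0.67, adjusted p = 0.91), an interval that still holds a change of over 1.5-fold either way. With the replicate number as a block the interval was -0.52 to 0.38 (adjusted p = 0.82). Control nodules stood above all other groups, and nitrate-treated nodules overlapped nitrate-treated roots but not control roots.

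Over the probes tested, 0.851% of 33946 were raised in roots and 1.7% lowered, 2.55% in all, and 5 of the 6 members were raised. With the replicate number as a block, 4.23% of the probes were raised in roots and the same 5 members were called. In nodules 3.19% of 35245 probes were raised and 5.44% lowered, 8.63% in all, against 5 and 1 of the 6 members. Quantile normalization gave 3.88% raised and 4.36% lowered in nodules. The median log2 change of the members was 2.61 in roots, or 2.52 with BE805634.1_378 at its bound, and 1.84 in nodules, where the medians over all probes were 0.10 and -0.08. With the slide as a block, which rests the root change on the first control sample and the nodule change on the third nitrate sample, the 4 bright members had changes of 2.19 to 3.18 in roots and 1.87 to 2.12 in nodules. BE805634.1_378 was called in both organs under this block too, with control signals near or below background, so that no size is given. CO979767.1_615 then changed by -0.56 in roots (adjusted p = 0.78) and -1.85 in nodules (adjusted p = 0.0011). In these pooled samples of lower roots and larger nodules, more RNA per cell and more cells of an expressing type cannot be told apart.

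**Figure D2:**
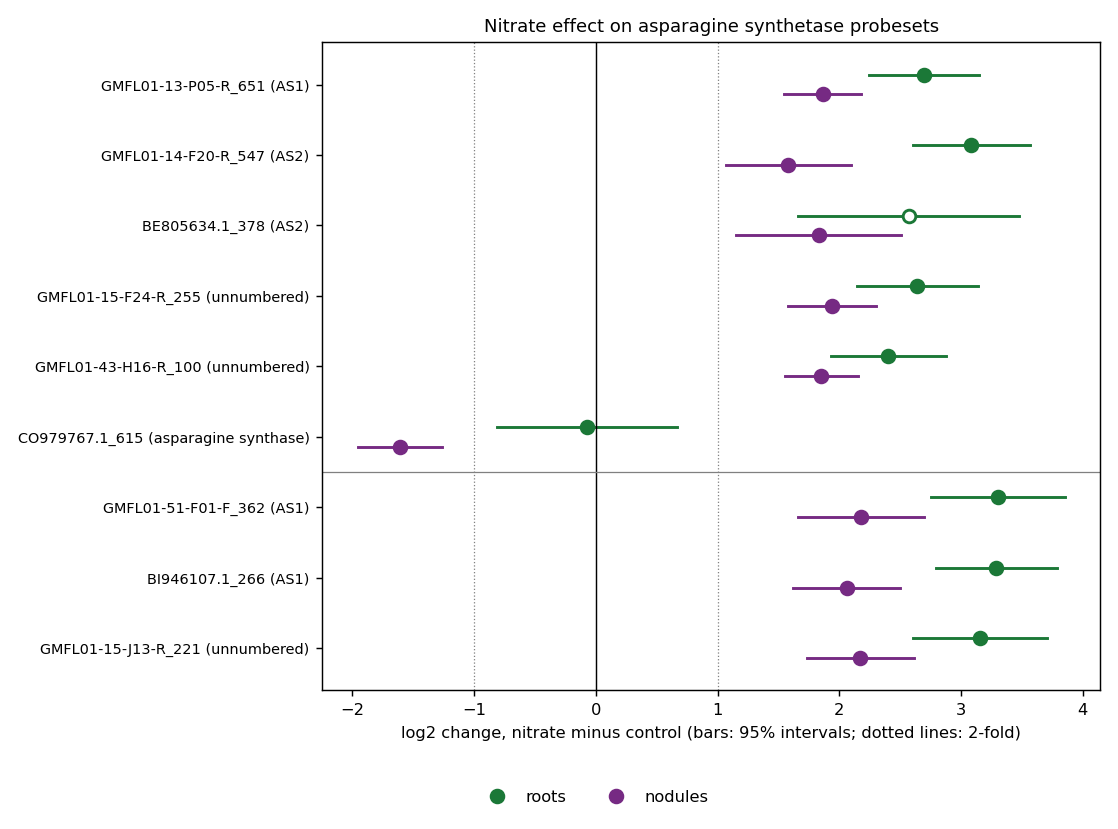
Log2 change, nitrate minus control, in roots and nodules for the 6 members (above the line) and for the 3 other probesets described as asparagine synthetase (below it), with 95% intervals from limma. The open point marks BE805634.1_378 in roots, whose control arrays were not well above background. CO979767.1_615 is at -1.61 in nodules and the other probesets lie between 1.58 and 3.30.

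The 3 probesets outside the members moved with the 5 raised ones. GMFL01-51-F01-F_362 and BI946107.1_266, both described as AS1, rose by 3.30 and 3.29 on the log2 scale in roots and by 2.18 and 2.06 in nodules. GMFL01-15-J13-R_221, unnumbered, rose by 3.16 in roots and 2.17 in nodules. Their adjusted p was 0.0008 to 0.0015 in roots and 0.0024 to 0.0028 in nodules. Of these changes, 3 of 3 in each organ were calls. BI946107.1_266 and GMFL01-15-J13-R_221 were read from the low-gain scan on every nitrate array and no control array. GMFL01-51-F01-F_362 was so read on 1 nitrate array per organ and on no control array. These changes thus span 2 gain settings, whose part was not tested.

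Whether nitrate acted differently in the organs was tested as the root effect minus the nodule effect over all 12 arrays. This difference passed both thresholds for 2 of the 6 members, and 14.7% of 36413 probes passed, 9.34% with the higher effect in roots and 5.31% with the lower. For GMFL01-14-F20-R_547 the root effect exceeded the nodule effect by 1.50 (SE 0.29, adjusted p = 0.0074). For CO979767.1_615 the difference was 1.54 (SE 0.37, adjusted p = 0.017), with a fall in nodules and -0.07 in roots. The AS1 probeset GMFL01-13-P05-R_651 differed by 0.83 (SE 0.21, adjusted p = 0.021), under 2-fold. Of its groups only the control roots were not read from the low-gain scan, and the part of the scan gain in this difference was not tested. The median difference of the members was 0.79, and that over all probes was 0.15 with the mean scaling and 0.02 with 75th percentile scaling.

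The remaining members did not pass. The difference was 0.70 for GMFL01-15-F24-R_255 (95% interval 0.15 to 1.25, adjusted p = 0.070) and 0.55 for GMFL01-43-H16-R_100 (0.07 to 1.03, adjusted p = 0.10). For BE805634.1_378 it was 0.74 (-0.41 to 1.89, adjusted p = 0.34), with control roots below background. With the slide as a block none of the 6 passed, since GMFL01-14-F20-R_547 was at 1.31 (adjusted p = 0.081) and CO979767.1_615 at 1.28 (adjusted p = 0.11). Organ and slide overlap in this design, and the part of the slide in these differences was not tested further.

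The organs also differed in level, and the members did not share one order. Under nitrate, 3 members were higher in roots than in nodules by less than 2-fold. GMFL01-14-F20-R_547 was higher by 0.64 (SE 0.15, adjusted p = 0.011), GMFL01-15-F24-R_255 by 0.78 (adjusted p = 0.0038) and GMFL01-43-H16-R_100 by 0.90 (adjusted p = 0.00082) on the log2 scale. Over the alternatives GMFL01-15-F24-R_255 came down to 0.47 (limma adjusted p up to 0.18) and GMFL01-43-H16-R_100 to 0.64 (up to 0.063). Under nitrate, and likewise without it, no slide held samples of both organs. GMFL01-13-P05-R_651 was lower in roots, at -0.87 (adjusted p = 0.00072). BE805634.1_378 at -0.42 (95% interval -1.21 to 0.36) and CO979767.1_615 at 0.42 (-0.17 to 1.01) did not pass. None of the 6 was over 2-fold apart, where 45.8% of 35647 probes were called, 22.2% higher in roots and 23.6% lower. In limma 4 of the 6 passed at an unadjusted p under 0.05, as did 26537 of all 35647 probes tested. The median of the members was 0.53, against -0.08 over all probes.

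Without nitrate, 2 of the 5 members tested were called, both lower in roots. Of 36137 probes, 50.3% were called, 29.9% lower in roots and 20.4% higher. GMFL01-13-P05-R_651 was at -1.71 (SE 0.19, adjusted p = 0.00026), or 3.26-fold lower in control roots than in control nodules. Its control nodules were read from the low-gain scan and its control roots were not, and the part of the scan gain was not tested. CO979767.1_615 was at -1.12 (SE 0.26, adjusted p = 0.0070) and came to -0.98 without control root sample 3, and to between -0.95 and -0.88 with 75th percentile scaling, quantile normalization or normexp, under 2-fold. GMFL01-14-F20-R_547 was at -0.86 (adjusted p = 0.015). GMFL01-15-F24-R_255 at 0.07 (95% interval -0.40 to 0.55) and GMFL01-43-H16-R_100 at 0.36 (-0.09 to 0.80) did not pass, and BE805634.1_378 was too dim in both organs to be tested. The median of the 5 was -0.86. Over all probes the median was -0.29, and -0.12 with 75th percentile scaling.

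The AS2 probeset GMFL01-14-F20-R_547 thus stood higher in roots than in nodules under nitrate and lower in roots without it, with no overlap of samples in either case. With the slide as a block in the fit of 12 arrays, the difference was 0.93 under nitrate (adjusted p = 0.058) and -0.39 without nitrate (adjusted p = 0.39). The AS1 probeset GMFL01-13-P05-R_651 was lower in roots both with and without nitrate under the same block, at -1.05 (adjusted p = 0.0096) and -1.63 (adjusted p = 0.0011). Without nitrate this sets nodules read from the low-gain scan against roots that were not, while under nitrate both organs were read from it.

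**Figure D3:**
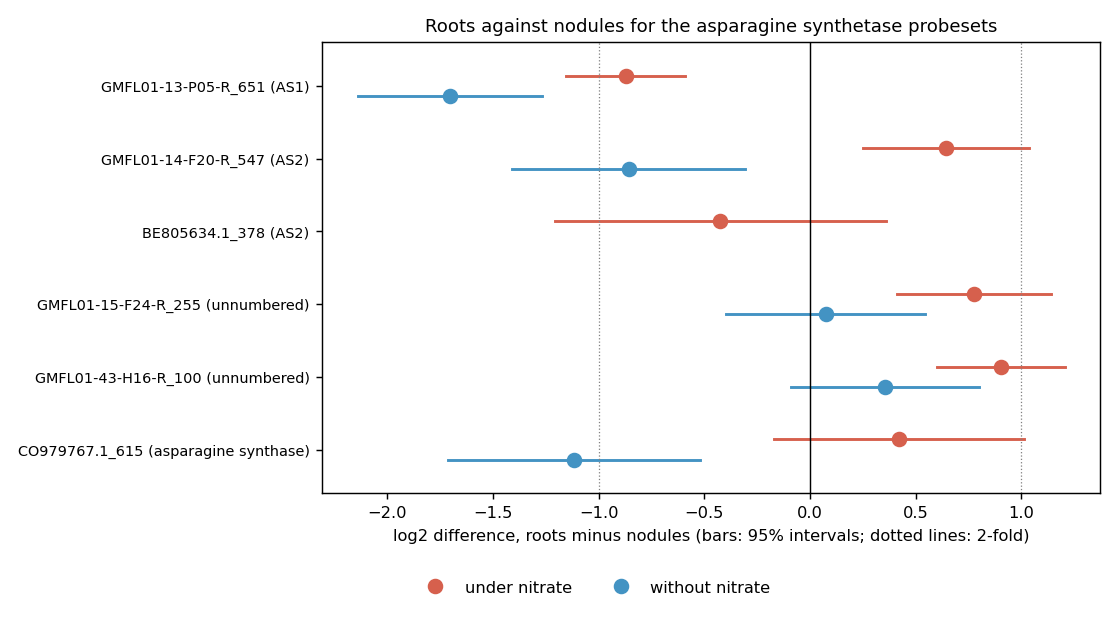
Log2 difference of the members between organs, roots minus nodules, under nitrate and without it, with 95% intervals from limma. GMFL01-13-P05-R_651 lies left of 0 in both, and GMFL01-14-F20-R_547 lies at 0.64 under nitrate and at -0.86 without it. BE805634.1_378 has no value without nitrate.

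The members were then compared with one another within arrays, where the scaling of the array cancels. The 5 members well above background on every array give 10 pairs. For each pair the log2 ratio was compared between nitrate and control over both organs, by a two-sided exact permutation test within organs whose smallest p is 0.005, adjusted over the 10 pairs. CO979767.1_615 differed from each of the 4 other members by -2.97 to -3.17 (exact permutation adjusted p = 0.013 for each). Leaving out any array kept these differences between -3.32 and -2.85. Since the members came from lists of probesets that changed over 2-fold on these same arrays, these p-values are not independent evidence of a difference.

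Among the 4 bright members the 6 differences over both organs lay between -0.05 and 0.21. GMFL01-15-F24-R_255 rose by 0.16 more than GMFL01-43-H16-R_100 (0.24 in roots and 0.09 in nodules, exact permutation adjusted p = 0.03). GMFL01-13-P05-R_651 rose by 0.15 more than GMFL01-43-H16-R_100 (0.29 in roots and 0.01 in nodules, exact permutation adjusted p = 0.042). Scan gain does not cancel in this ratio, since control roots were read at low gain for GMFL01-43-H16-R_100 but not for GMFL01-13-P05-R_651. The difference between GMFL01-13-P05-R_651 and GMFL01-43-H16-R_100 did not pass with quantile normalization (adjusted p = 0.27). The other 4 pairs did not pass (adjusted p = 0.46 to 0.86). For the 3 pairs with GMFL01-14-F20-R_547 this mean covers differences of opposite sign. Its rise exceeded that of the other bright members by 0.39 to 0.68 in roots and was 0.27 to 0.36 smaller in nodules. Within one organ the smallest exact p for 3 against 3 samples is 0.1, so no pair could pass there.

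Over the 12 arrays, the signal patterns of the bright probesets did not follow the AS1 and AS2 descriptions. Each unnumbered member was nearest to the other unnumbered probesets, but these were not set apart from all the numbered ones. Correlations are of log2 signal, are largely set by the 4 groups, and are given as a description. The AS2 probeset GMFL01-14-F20-R_547 had a Pearson r of 0.99 with BI946107.1_266 and 0.98 with GMFL01-51-F01-F_362, both described as AS1. The AS1 member GMFL01-13-P05-R_651 had an r of only 0.89 and 0.87 with these, and of 0.88 with GMFL01-14-F20-R_547. Without nitrate the 2 other AS1 probesets differed between organs by -0.72 and -0.55 on the log2 scale, nearer to the -0.86 of GMFL01-14-F20-R_547 than to the -1.71 of GMFL01-13-P05-R_651. Of these probesets, only GMFL01-13-P05-R_651 changed scan gain between control roots and control nodules. The part of the scan gain in its organ difference and in its r was not tested. The differences between these values were not tested, nor was hybridization of one gene's RNA to another's probe.

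The 2 unnumbered members followed each other closely, with an r of 0.99 over the 12 arrays and 0.98 for the deviations from the group means. Each had GMFL01-15-J13-R_221, the unnumbered probeset outside the members, as its nearest probeset other than a member, with an r of 0.98 for GMFL01-15-F24-R_255 and 0.99 for GMFL01-43-H16-R_100. GMFL01-51-F01-F_362, described as AS1, had an r of 0.98 and 0.96 with the same members. The AS2 member GMFL01-14-F20-R_547 had 0.95 and 0.92 with them, and the AS1 member GMFL01-13-P05-R_651 had 0.77 and 0.70. For the deviations from the group means GMFL01-13-P05-R_651 had an r of 0.88 with GMFL01-15-F24-R_255 and 0.91 with GMFL01-43-H16-R_100. BE805634.1_378 had an r of 0.92 with GMFL01-14-F20-R_547 and 0.92 with GMFL01-13-P05-R_651 over the 12 arrays. For the deviations from the group means these were 0.69 and -0.11, on a probeset near background. CO979767.1_615 had an r of -0.33 to -0.61 with the 4 bright members.

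Among the 30990 other probes well above background on all arrays, those most like each of the 5 members read on all arrays were as follows, and BE805634.1_378 was too dim to be included. The nearest probes to GMFL01-13-P05-R_651 were GMFL01-41-L12-R_392, described as an actin depolymerizing factor (r 0.97), AI973637.1_410, described only by a Lotus genomic clone (0.96), and BQ253937.1_451, described by the Arabidopsis LOB domain protein 39 (0.96). After the 2 AS1 probesets, GMFL01-14-F20-R_547 was nearest to AW760651.1_483, described as a chloride channel of the CLC family (0.97). The third probe for GMFL01-15-F24-R_255, after GMFL01-15-J13-R_221 and GMFL01-51-F01-F_362, was the spermidine synthase probe CA800176.1_514 (0.97). GMFL01-43-H16-R_100 had the same spermidine synthase probe (0.98) and the NADH glutamate synthase probe CX702963.1_699 (0.96). The nearest to CO979767.1_615 were BU761516.1_402, described as a putative endomembrane protein (0.93), BU550052.1_116 (0.93) and GMFL01-28-E21-R_448 (0.92), of which the last 2 carry no gene description here.

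The enzymes on either side of asparagine synthetase were read from a list of 36 probesets taken by description from the same lists, so that their counts too are not independent evidence of direction. Asparaginase, which breaks asparagine down, was lowered in 3 of 4 probesets in roots and in 3 of 3 tested in nodules. CD409922.1_668 read 6682 to 7796 in nitrate-treated roots, against 15393 to 18550.5 in control roots, and 179.0 to 606 in nitrate-treated nodules, against 5025 to 6907 in control nodules. Neither organ's groups overlapped, and the fall was -1.21 in roots (SE 0.19, adjusted p = 0.026) and -3.99 in nodules (SE 0.45, adjusted p = 0.0031).

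GMFL01-08-F10-R_584, another asparaginase probeset, changed by -2.69 in nodules (limma adjusted p = 0.0035) and by -0.58 in roots, where it did not pass (limma adjusted p = 0.16). Among its nodule arrays only the control ones were read from the low-gain scan. CF805961.1_241 fell by 1.81 in roots and 3.82 in nodules on the log2 scale, with 2 of the 3 nitrate-treated nodule arrays well above background. BE658128.1_628 fell by 1.97 in roots and was not well above background on any nodule array. So the organ in which asparaginase fell further was the nodule for CD409922.1_668 and GMFL01-08-F10-R_584, with root effects 2.78 and 2.12 above the nodule effects (adjusted p = 0.0061 and 0.0063). For CF805961.1_241 the difference of 2.01 did not pass (adjusted p = 0.052). BE658128.1_628 was called the other way (-2.08, adjusted p = 0.0050), on nodule signals of which none was well above background.

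Nitrate reductase and nitrite reductase, which convert nitrate to ammonium, were raised in 3 of 3 probesets each in roots and in 0 of 6 in nodules. The nitrate reductase probesets rose by 6.16 to 6.83 in roots, and in nodules all 3 had an adjusted p under 0.05 with changes of 0.36 to 0.42, under 2-fold. Of the nitrite reductase probesets 1 of 3 passed limma's test in nodules, under 2-fold, at an unadjusted p under 0.05 and after adjustment. Nitrite reductase rose by 7.79 and 9.08 in 2 probesets, and was at least 382-fold higher in BG155089.1_555, which was below background in control roots. Glutamine synthetase makes the amide donor of asparagine synthetase. It was raised in 5 of 5 probesets in roots (1.26 to 4.64) and in 0 of 5 in nodules. Its nodule values were -0.07 to 0.52, of which 2 had an unadjusted p under 0.05 in limma. In nodules 19374 of all 35245 probes tested had such a p. NADH glutamate synthase was raised in 4 of 4 probesets in roots and 2 of 4 in nodules, and PEP carboxylase, which supplies carbon for aspartate, in 2 of 2 and 0 of 2.

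Aspartate aminotransferase makes aspartate, and aspartokinase and asparaginyl-tRNA synthetase draw on aspartate and asparagine. These roles were not called in roots in the fit without a block, and were called with the replicate number as a block. Other alternatives were not read for these roles. Their root changes were 1.04 to 1.56, with limma adjusted p of 0.059 to 0.13 without this block. With it the limma adjusted p was 0.013 to 0.027, and all 6 probesets were called raised. None was called in nodules with or without the block. Their nodule changes were -0.66 to -0.11, and those of aspartate aminotransferase and aspartokinase passed the test at under 2-fold. Among the roles of the list, only asparagine synthetase and NADH glutamate synthase had probesets called raised in both organs, with or without the block. In nodules the NADH glutamate synthase changes were 0.60 to 1.15, so its calls there lay just over 2-fold. CX702963.1_699, called at 1.07, was read from the low-gain scan on all nitrate-treated and no control nodule arrays. The part of the scan gain was not tested.

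**Figure D4:**
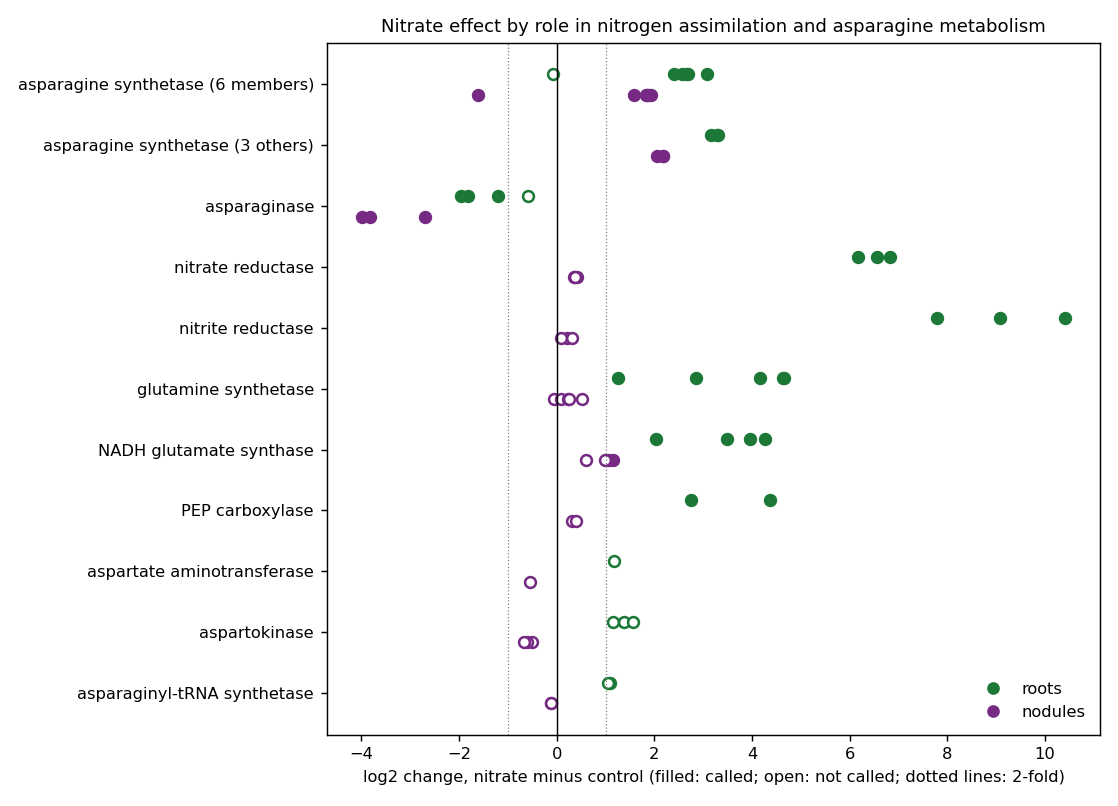
Log2 change, nitrate minus control, of each probeset of the list by role, in roots and nodules, with filled points for calls (without the replicate block) and open points for probesets tested but not called. In nodules the nitrate reductase, nitrite reductase and glutamine synthetase points lie between -0.07 and 0.52, while 5 of the 6 asparagine synthetase members lie between 1.58 and 1.94. A probeset below background in control roots is drawn at its fitted value.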

How the data were processed

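RNA of 3 samples per group was hybridized to 1-colour (Cy3) Agilent arrays. The values are intensity: per the file headers, the authors' Feature Extraction software (10.5.1.1 in the headers, 9.5.1 in the submitters' processing notes) had adjusted the processed signal of each spot for background within its array, with bright spots taken from a low-gain scan and scaled up. The deposited series table held the same values (529980 of 529980 equal). Signals were scaled to an array mean of 2500, the target in the study's methods, with factors of 0.544 to 0.922, and taken to log2. Outlier spots (106, none on a member) were left out.

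A probe entered a fit where every array of 1 or more of its groups read it as well above background, and was fitted with limma 3.58.1 in R 4.3.3 (lmFit, eBayes, Benjamini-Hochberg), without pairing as in the methods. Each comparison used its 6 arrays, and the organ difference in the nitrate effect all 12. Alternatives were 75th percentile scaling, quantile normalization, normexp with an offset of 50, and no filter. Others were 1 fit of all arrays, the replicate number or slide as a block, the methods' t-test and leaving out each array. Bounds used signals per array. Pairs of members were tested in Python 3.11.15 with exact permutation. The fits were checked on simulated data.

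Samples with one replicate number deviated together in roots (r of 0.30, 0.43 and 0.64 between nitrate and control over 30991 probes). The methods name no pairing, and whether the numbers pair the root samples was not tested further. In nodules r was 0.15, 0.04 and 0.14. The replicate number comes from the titles, and the block on it is an alternative. Samples are separate pools of 3 plants. Arrays have no counts, so the number of arrays limits the precision.

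All 6 members, the other probesets described as asparagine synthetase, the asparaginase probesets and the 3 probes nearest by r to each member read on all arrays (5 of the 6) were named, and other roles are given by counts and ranges. Members and lists were chosen with earlier results of these data known. Descriptions came from the study's supplementary lists, 1 of them read only in part. No leghemoglobin or uricase probe was matched. For 1 control root sample the title's number was used, since another label gives a different one.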

Additional observations from a re-analysis of the deposited data

Results flagged for a closer look

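The effect of nitrate differed between organs for 3 of the 6 members at an adjusted p under 0.05, by the interaction test of limma over 12 arrays. With a difference over 2-fold as well, 2 of the 6 passed, as did 14.7% of all 36413 probes tested. At an unadjusted p under 0.05 in this test, 5 of the 6 members passed, as did 12885 of all 36413 probes. Roots minus nodules, the effect was 1.54 on the log2 scale for CO979767.1_615 (adjusted p = 0.017), 1.50 for GMFL01-14-F20-R_547 (adjusted p = 0.0074) and 0.83 for GMFL01-13-P05-R_651 (adjusted p = 0.021). The difference for GMFL01-13-P05-R_651 did not pass without nitrate-treated root sample 2 (0.79, adjusted p = 0.051), control nodule sample 3 (0.71, adjusted p = 0.056) or nitrate-treated nodule sample 1 (0.76, adjusted p = 0.052). With the slide as a block none of the 3 passed (adjusted p = 0.081 to 0.25), and the part of the slide was not tested further. For GMFL01-13-P05-R_651 the control roots alone were not read from the low-gain scan, and the part of the scan gain was not tested.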

How the results depend on the processing

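Of 520 alternative values for single members and pairs, 495 kept their direction and their side of the threshold, 16 lost a call, 2 gained one and 7 changed sign. The number of members called was within 1.5 times of the given number in 81 of 90 alternatives. In roots the methods' t-test, adjusted, called 3 of the 5 members, and leaving out 1 array gave 4 to 5. With that t-test GMFL01-15-F24-R_255 had an adjusted p of 0.051 and BE805634.1_378 of 0.14 in roots and 0.082 in nodules. The slide as a block left 0 members with an organ difference in the nitrate effect and gave 1 member, GMFL01-13-P05-R_651 (-1.05), between organs under nitrate. Without nitrate, 75th percentile scaling, quantile normalization and normexp each called 1 member between organs, and leaving out 1 array 1 to 3, as GMFL01-14-F20-R_547 was called without control nodule sample 1. Pairs of members passed in 0 cases in roots alone and 0 in nodules alone, where the exact test cannot reach the threshold. Pair GMFL01-13-P05-R_651 minus GMFL01-43-H16-R_100 was lost with quantile normalization and normexp (adjusted p = 0.27).

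Signs changed only for differences that had not passed. CO979767.1_615 in roots came to 0.17 without control sample 1 and 0.11 without nitrate sample 3, and lay between -0.32 and 0.17 over all samples left out. GMFL01-15-F24-R_255 between organs without nitrate came to -0.058 without control root sample 1 and -0.0001 without control nodule sample 1, and lay between -0.058 and 0.20 over all samples left out. With the slide as a block under nitrate, BE805634.1_378 came to 0.98 and CO979767.1_615 to -0.43. With quantile normalization GMFL01-14-F20-R_547 minus GMFL01-15-F24-R_255 came to -0.067.

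The replicate number as a block changed no call of a member but added 6 root calls among aspartate aminotransferase, aspartokinase and asparaginyl-tRNA synthetase. With this block the root changes were 2.57 for BE805634.1_378 (limma adjusted p = 0.0015) and 3.08 for GMFL01-14-F20-R_547 (limma adjusted p = 0.00064). The calls over all probes moved more than those of the members. In roots they numbered 865, and 77 to 2904 over the alternatives, the highest with the replicate block. They numbered 3041 in nodules (1594 to 5117) and 5335 for the organ difference (2552 to 8969, the highest without control root sample 1). The share of nodule calls that were raised was 36.9%, and 47.1% with quantile normalization and 51.3% with normexp. BE805634.1_378 is limited by its signal near background.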
